A study of Nannochloropsis oceanica with 8 samples.

Results

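Dimethylation of lysine 9 of histone H3 (H3K9me2) was compared between low and high CO2 in *Nannochloropsis oceanica*, a unicellular marine alga that stores oil. All 6185 peaks of the deposited H3K9me2 table were taken, in the 4 H3K9me2 libraries of the 8 libraries of the study. The other 4 libraries, of a mark labelled Kbu and measured at the same peaks, are given only beside H3K9me2 results. The question of the design was how the CO2 supply alters histone marks along the genome.

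The low-CO2 group was strain IMET1 aerated with 0.04% CO2 and sampled at 24 h (2 libraries). The high-CO2 group was the same strain kept at 5% CO2 and sampled at 24 h (2 libraries). All cultures stood under continuous light in buffered medium and had been aerated with 5% CO2 before the switch. Each CO2 level had 3 cultures, per the labels, and which culture a library came from is not stated. The p-values therefore reflect variation among these libraries, which may be technical. The labels give each H3K9me2 library a different antibody lot number, and the numbers are consecutive. Whether these are true lots is not known, and lot and library cannot be told apart. One strain and 1 time point were sampled.

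H3K9me2 is placed by SET-domain methyltransferases and removed by demethylases, and chromodomain proteins of the HP1 type bind it. In many eukaryotes it marks compact, silent chromatin over transposons, repeats and the regions around centromeres, and it can spread from one nucleosome to its neighbours. Algae answer low CO2 with a carbon-concentrating system built on carbonic anhydrases and bicarbonate transporters. Genes and repeats at the peaks were not analysed here, so peaks are given by number and position as deposited, and the genome build was not stated in the sources used.

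The level of a peak is its ChIP pileup, the height of stacked reads, divided by the lowest background value of the same library. That lowest value is taken as the genome background, which is an assumption. It stood at 11.7 and 10.8 in the low-CO2 libraries and at 11.1 and 9.90 in the high-CO2 libraries. The pileup rises in steps, and each step is taken as 1 read here and below. The pileup of the median peak corresponded to 69 and 38 reads at low CO2 and to 53 and 29 reads at high CO2. If reads were independent, the counting error of 1 such peak would be 12.0% and 16.2% at low CO2. At high CO2 it would be 13.7% and 18.6%. Replicates differed by less over all peaks, with a pooled SD of 0.15 on the log2 scale, so these errors overstate the spread between libraries. Total library depth is unknown.

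H3K9me2 was weak at most peaks at both CO2 levels. The median level was 1.50 and 1.65 times the genome background in the low-CO2 libraries, and 1.35 and 1.44 times in the high-CO2 libraries. The 2 groups did not overlap, with 1.57 ± 0.11 at low and 1.39 ± 0.069 at high CO2 (SD, n = 2 each, two-sided exact permutation p = 0.333, the smallest that 2 against 2 libraries can give). This order rests on the choice of background. With the 5th percentile of each library's background values in place of the lowest, the difference of the medians was -0.40 instead of 0.18. With the lowest value, Kbu was stronger at the same peaks, with medians of 2.54 and 2.63 at low and 3.71 and 3.71 at high CO2. A level of at least 2 was reached by 4838 and 4975 peaks for Kbu at low CO2, against 399 and 814 for H3K9me2. At high CO2 these numbers were 5765 and 5780, against 11 and 73. How the peaks were called was not stated in the sources used, so they may not be peaks of H3K9me2.

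The upper end of the range differed more than the median. The 99th percentile of the level was 2.89 and 3.21 times the genome background at low CO2, against 1.75 and 2.04 times at high CO2. A level of at least 2 in both libraries of a group was reached by 317 peaks (5.13%) at low CO2 and by 10 peaks (0.162%) at high CO2. These counts rest on the same choice, since they were 25 and 10 with the 5th percentile. Across the 6185 peaks, which are not independent replicates, log2 levels of the 2 low-CO2 libraries correlated at 0.67 and those of the 2 high-CO2 libraries at 0.30. Between CO2 levels the correlation was 0.23 to 0.31.

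The deposited background differed between the CO2 levels. Named lambda in the table, the word MACS2 uses for its local control, its median over peaks, relative to its lowest value, was 3.53 and 3.52 in the low-CO2 libraries, against 1.28 and 1.24 in the high-CO2 libraries. Median H3K9me2 levels at low CO2 (1.50 and 1.65) lay below this control, and those at high CO2 (1.35 and 1.44) above it. A level over genome background is thus not a level over the local control. H3K9me2 changes are therefore given on the pileup alone, and the local control is given beside the results it moves with.

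Relative to the bulk, that is to the mean over all peaks of a library, H3K9me2 pileup was higher at low CO2 at 249 peaks (4.03% of those tested) and lower at 65 (1.05%), 314 in all (5.08%). The other 5871 did not pass. The count of lower peaks depends on what is taken as the bulk. With each library's median in place of its mean, 240 peaks were higher and 22 lower (limma). Each change is a difference of log2(level + 0.1), low minus high CO2, after subtracting each library's mean over all peaks (limma with a mean trend, Benjamini-Hochberg adjusted p under 0.05 over 6185 peaks, n = 2 per group). Without that centring, so directly over the genome background, 304 peaks (4.92%) were higher. None (0%) was lower in limma there, with 21 lower at an unadjusted p under 0.05 and 0 when each peak's own spread was used. These counts depend on the background too. With its 5th percentile, an alternative added after seeing the data, 44 peaks were higher and 4080 lower (limma). Relative to the bulk, the background divides out apart from the pseudocount.

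Peaks that were higher at low CO2 were near the typical level at high CO2. Their median level was 2.45 and 2.60 times the genome background in the low-CO2 libraries, against 1.35 and 1.44 times in the high-CO2 libraries, the same high-CO2 values as over all peaks. Of the 249, 210 reached a level of 2 in both low-CO2 libraries and 7 in both high-CO2 libraries, and 246 passed on both scales. Their change ran from 0.44 to 1.40, with a median of 0.60. Their local control stood at 4.54 and 4.56 times its lowest value at low CO2, above their median level. At high CO2 it stood at 1.40 and 1.38 times.

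Lower peaks showed a smaller and less even difference. Their median level was 1.28 and 1.30 times the genome background at low CO2, against 1.50 and 1.89 times at high CO2. The 2 high-CO2 libraries lay farther apart than the low-CO2 ones, and replicate 2 was the higher. The change of the 65 ran from -0.80 to -0.45, with a median of -0.51. They were narrower than the higher peaks, with a median width of 838 bp, against 1167 bp at higher peaks and 1030 bp at peaks that did not pass.

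**Figure D1:**
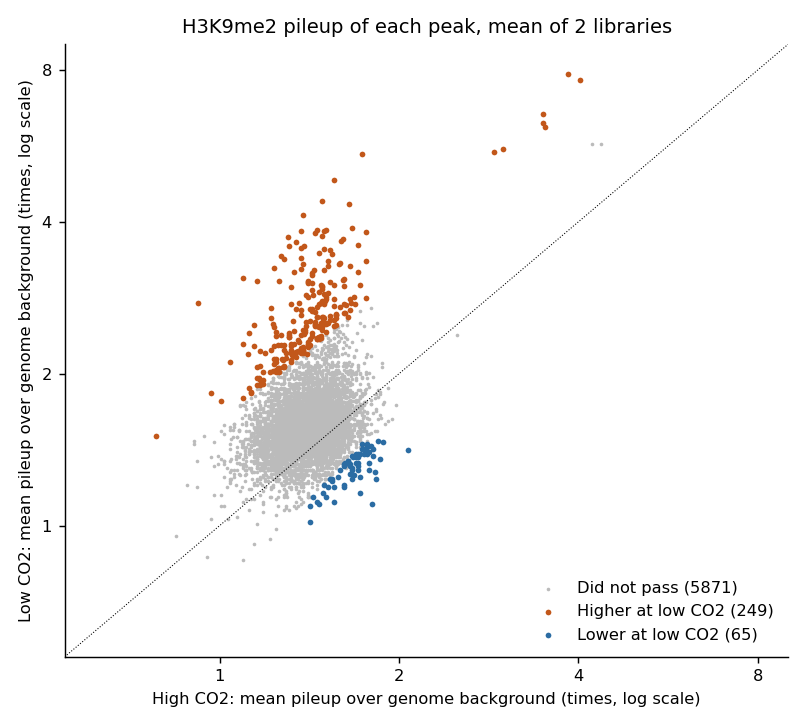
Mean H3K9me2 pileup over genome background of each of the 6185 peaks at low CO2 (vertical axis, times, log scale) against high CO2 (horizontal axis, times, log scale), n = 2 libraries per CO2 level. The 249 higher peaks stretch upwards from a narrow range of high-CO2 levels, while the 65 lower peaks stay close to the cloud of peaks that did not pass.

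Kbu moved with these groups. Relative to its own bulk, the median Kbu change was 0.44 at the peaks with higher H3K9me2, -0.15 at those with lower H3K9me2 and -0.04 at the rest. The low-CO2 control moved with them too. In low-CO2 replicate 1 it stood at 4.54 times its lowest value at the higher peaks, at 2.74 times at the lower peaks and at 3.52 times at the rest, and its part in the result was not tested. With the pileup divided by the local control, where 17.8% of all peaks passed higher and 23.8% lower, 118 of the 249 passed higher and 23 passed lower. Of the 65, 30 passed lower and 5 passed higher.

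The authors' deposited table gives an adjusted p for 1029 peaks, of which 296 (28.8%) were under 0.05, all of them higher at low CO2. Of the 249 peaks higher on the pileup, 106 have an adjusted p in the authors' deposited table, and 67 of these were under 0.05. The shared peaks were 26.9% of the pileup gains and 22.6% of the deposited calls.

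All peaks of a given level shared 1 estimate of the spread. With each peak's own spread 0 peaks passed higher and 1 lower (550 peaks of either direction at an unadjusted p under 0.05). With 1 library left out, gains numbered 129 to 158 and 78 of the 249 passed each time. Losses numbered 34 and 13 when low-CO2 replicate 1 or 2 was dropped, and 67 and 7 when high-CO2 replicate 1 or 2 was dropped, and 3 of the 65 passed each time. The gains over genome background numbered 0 when either low-CO2 library was dropped, and 20 and 22 when high-CO2 replicate 1 or 2 was dropped.

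The 10 largest gains were spread over 9 chromosomes. The largest change was at peak2876 on chromosome 20 (613745 to 614534). Its level was 4.90 and 5.98 times the genome background at low CO2, against 1.83 and 1.64 times at high CO2, from 226 and 138 reads at low CO2 and 72 and 33 reads at high CO2. Both low-CO2 libraries were far above both high-CO2 libraries, and the change was 1.40 (SE 0.15, limma adjusted p = 2.3e-16, n = 2 per group).

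A wide gain lay on chromosome 2, at peak2482 (516167 to 517825, 1658 bp). It stood at 4.75 and 4.94 times the genome background at low CO2, against 1.42 and 1.69 times at high CO2, a change of 1.39 (SE 0.15, limma adjusted p = 1.1e-16, n = 2 per group). Kbu at this peak was lower at low CO2, with 4.96 and 4.32 times its genome background, against 5.16 and 5.31 times at high CO2. Relative to its own bulk, Kbu changed by 0.31 there, so its direction depends on the scale. Over its genome background, taken as the lowest value, Kbu was lower in both low-CO2 libraries at 2 of the 10 named gains and higher in both at 8. On that scale the Kbu medians over all peaks were 2.54 and 2.63 at low CO2, against 3.71 and 3.71 at high CO2.

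At peak4043 (chromosome 29, 486283 to 487484) the level was 4.23 and 4.03 times at low CO2, against 1.42 and 1.34 times at high CO2. At peak34 (chromosome 1, 211142 to 212680) it was 4.27 and 4.51 times at low CO2, against 1.47 and 1.49 times at high CO2. The replicates of each group differed by much less than the groups at both peaks, whose changes were 1.32 and 1.31.

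At peak2708 (chromosome 2, 1456314 to 1457367) the high-CO2 libraries lay around the genome background, with 2.41 and 3.12 times at low CO2, against 1.04 and 0.796 times at high CO2. At peak1476 (chromosome 14, 1000591 to 1000991), the narrowest of the 10 with 400 bp, it was 3.04 and 3.16 times at low CO2, against 1.19 and 0.996 times at high CO2. At both, the high-CO2 level was at or near the genome background. Kbu was also higher at low CO2 at both, by 1.31 and 1.50 relative to its bulk.

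At peak2929 (chromosome 21, 76570 to 77537) the level was 3.28 and 4.2 times at low CO2, against 1.12 and 1.49 times at high CO2. At peak3526 (chromosome 25, 242064 to 243752) it was 4.06 and 3.60 times at low CO2, against 1.40 and 1.34 times at high CO2. The low-CO2 control at peak3526 was the highest of the 10, at 7.12 times its lowest value in replicate 1.

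The remaining named gains lay close to another peak. At peak1242 (chromosome 13, 834850 to 835477), 197 bp from the next peak, the level was 3.38 and 3.77 times at low CO2, against 1.22 and 1.39 times at high CO2. At peak3185 (chromosome 22, 549599 to 550202), 48 bp from the next peak, it was 3.56 and 3.73 times at low CO2, against 1.24 and 1.44 times at high CO2. In all 10 peaks the groups were far apart, with changes of 1.19 to 1.40 and a limma adjusted p of 1.1e-16 to 2.6e-13 (n = 2 per group). With 1 library left out their changes relative to the bulk were 1.06 to 1.54. All 10 passed higher over the local control, with changes of 0.43 to 2.55 there.

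The 10 named losses were smaller and rested on few reads. The largest was at peak1761 (chromosome 16, 434858 to 435133), the narrowest of the 10 with 275 bp. Its level was 1.13 and 1.08 times the genome background at low CO2, against 1.32 and 2.29 times at high CO2, from 52 and 25 reads at low CO2 and 52 and 46 reads at high CO2. Most of the difference came from high-CO2 replicate 2, and the change was -0.80 (SE 0.15, limma adjusted p = 1.8e-05, n = 2 per group).

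Near the start of chromosome 18 lay 4 of the 10, whose values follow with that region. Elsewhere peak5907 (chromosome 8, 1194506 to 1195127) had 1.39 and 1.43 times at low CO2, against 1.80 and 2.34 times at high CO2. At peak73 (chromosome 1, 398293 to 399306) the level was 1.24 and 1.34 times at low CO2, against 1.68 and 1.89 times at high CO2. In both peaks the groups stood apart, with changes of -0.70 and -0.63.

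The others were peak5040 (chromosome 5, 1121473 to 1122013, change -0.63), peak2880 (chromosome 20, 636198 to 636644, -0.60) and peak365 (chromosome 10, 116002 to 117036, -0.60). Adjusted p of the 10 ran from 1.8e-05 to 0.0053 (limma, n = 2 per group). Over genome background none of the 10 passed, with adjusted p of 0.074 to 0.22 (limma). With the 5th percentile of the background all 10 passed lower there, as did 4080 of all 6185 peaks. Relative to the bulk, peak2064, peak5907 and peak73 alone passed with each library left out. Over the local control peak365 passed lower, peak2880 passed higher, and the changes of peak1761 and peak2060 were 0.37 and 0.03.

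**Figure D2:**
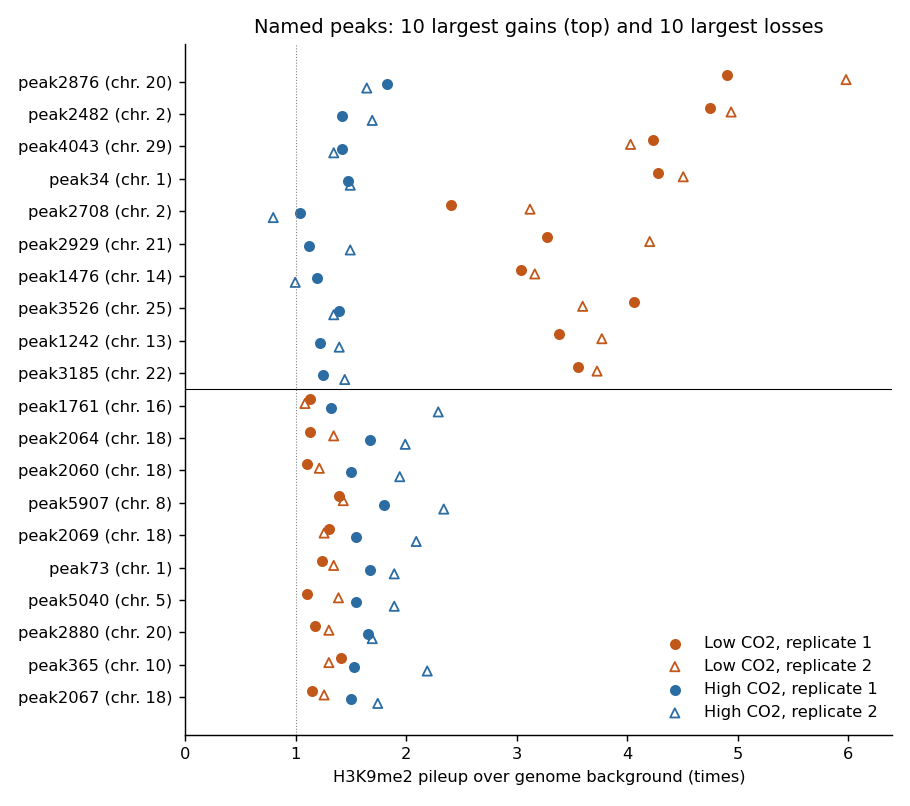
H3K9me2 pileup over genome background (times) in each library for the 10 peaks with the largest gains and the 10 with the largest losses at low CO2; each mark is 1 library, and the dotted line is the genome background. At the gains low-CO2 group means lie between 2.76 and 5.44, against 0.919 to 1.74 at high CO2, and at the losses between 1.11 and 1.41, against 1.62 to 2.07.

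The strongest H3K9me2 peaks at high CO2 were strong at low CO2 as well. All 10 peaks with a level of 2 in both high-CO2 libraries reached it in both low-CO2 libraries, and 7 of them passed higher and 0 lower. The highest mean at low CO2 was at peak749 (chromosome 11, 805408 to 806535), with 7.77 and 7.93 times the genome background at low CO2, against 4.14 and 3.53 times at high CO2. Its change was 0.83 (SE 0.18, limma adjusted p = 0.00033, n = 2 per group).

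Its neighbour peak748 (chromosome 11, 804022 to 804719), 689 bp away, had 5.51 and 7.54 times at low CO2, against 3.30 and 3.68 times at high CO2. At peak2254 (chromosome 19, 241503 to 243076) the level was 6.79 and 8.49 times at low CO2, against 3.81 and 4.23 times at high CO2. Neither pair of groups overlapped. The same held at peak5611 (chromosome 7, 1037585 to 1038659), with 6.28 ± 1.4 at low and 3.49 ± 0.013 at high CO2 (SD, n = 2 each). At peak4256 (chromosome 3, 1023007 to 1024806) the means were 6.16 ± 0.48 at low and 3.52 ± 0.16 at high CO2 (SD, n = 2 each).

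Most of these calls needed all 4 libraries. With 1 library left out, peak749 passed 3 times of 4, peak5611 2 times, peak748 and peak2254 once each and peak4256 never. The highest peak at high CO2, peak4257 (chromosome 3, 1030681 to 1031720), had 6.34 and 5.07 times at low CO2, against 4.49 and 4.23 times at high CO2, a change of 0.18 (SE 0.18) that did not pass (limma adjusted p = 0.70, n = 2 per group). At peak6010 (chromosome 9, 418238 to 420179) the level was 5.36 and 6.07 times at low CO2, against 4.29 and 4.13 times at high CO2, and the change of 0.24 (SE 0.18) did not pass either (limma adjusted p = 0.57, n = 2 per group).

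A larger share of wide peaks than of narrow ones was higher in H3K9me2 at low CO2. In the 251 peaks of 1500 bp or more, 70 passed higher (27.9%, against 4.03% of all peaks) and 3 lower. Their median level was 1.95 and 2.12 times the genome background at low CO2, against 1.42 and 1.59 times at high CO2. A level of 2 in both libraries was reached by 105 of them (41.8%) at low CO2 and by 4 at high CO2.

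Below 1500 bp the share of higher peaks was 2.91% among the 3094 peaks from 1000 to below 1500 bp, 2.92% among the 2569 from 500 to below 1000 bp and 5.17% among the 271 under 500 bp. The share of lower peaks was 1.20% in the widest class, then 0.549%, 1.40% and 3.32% towards the narrowest, so the smallest peaks held relatively many of the losses. Within the widest class the share higher was 26.8% in its narrowest 149 peaks, 40% in the next 50 and 19.2% in the 52 peaks of 2000 bp or more.

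The width difference was present in every library and larger at low CO2. Peaks of 1500 bp or more exceeded those under 500 bp, in median log2 level, by 0.51 and 0.50 in the low-CO2 libraries and by 0.15 and 0.23 in the high-CO2 libraries. The groups did not overlap (two-sided exact permutation p = 0.333, the smallest possible with 2 against 2 libraries). The median change per peak was 0.23 in the widest and -0.06 in the narrowest class, a difference of 0.29.

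Kbu level and the local control moved with width. In the top quartile of peaks by Kbu, 54 of 149 wide peaks passed higher (36.2%), against 4.94% of the 1397 narrower ones. In the lowest quartile of Kbu, 1 of 28 wide peaks passed higher and 2 lower, against 3.69% and 2.24% of the 1519 narrower ones. From the lowest to the top quartile of Kbu, the median change of wide peaks exceeded that of peaks under 1500 bp by 0.0059, 0.11, 0.20 and 0.31. In quartiles of the H3K9me2 level, which use the readout itself, this difference was -0.06, 0.03, 0.05 and 0.21, lowest to top. Nearly all peaks under 500 bp (268 of 271) lay in the lowest quartile of Kbu, so the widest and narrowest classes can hardly be compared within the others. The low-CO2 control stood at 5.29 times its lowest value at wide peaks, against 3.52 times over all peaks. Over the local control the width difference turned to -0.95, and 30 wide peaks passed higher (12.0%, against 17.8% of all peaks).

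Of the classes of spacing, the closest held the largest share of higher peaks. Of the 185 peaks with a gap under 500 bp to the nearest peak, 45 passed higher (24.3%, against 4.03% of all peaks) and 2 lower. Their median level was 1.80 and 1.86 times the genome background at low CO2, against 1.37 and 1.49 times at high CO2. From 500 bp outwards the share higher was 4.97%, 2.71%, 3.71% and 2.79% in the classes starting at 500, 1000, 2000 and 5000 bp, so the difference lay in the closest class.

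The share was larger still at the shortest gaps. Among the 37 peaks with a gap under 200 bp, 24 passed higher (64.9%) and 0 lower. Their median level was 2.52 and 2.60 times at low CO2, against 1.35 and 1.54 times at high CO2. The share was 13 of 18 peaks with gaps under 100 bp, 11 of 19 from 100 bp, 8 of 29 from 200 bp, 8 of 62 from 300 bp and 5 of 57 from 400 bp to below 500 bp. Peaks this close can share reads, so they are not separate observations.

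The class at least 5000 bp from the nearest peak had a median log2 level below that of the class under 500 bp, by 0.25 and 0.20 in the low-CO2 libraries and by 0.05 and 0.05 in the high-CO2 libraries. These groups did not overlap (two-sided exact permutation p = 0.333, the smallest possible). The difference in change was -0.18, and within width classes it was -0.19. Within quartiles of the H3K9me2 level, which use the readout itself, it was -0.03, and over the local control it was -0.38. Between the outer quartiles of spacing it was 0.0049. At peaks with gaps under 200 bp the low-CO2 control stood at 2.76 times its lowest value, against 3.52 over all peaks. Of these 37, 28 passed higher over the local control (75.7%, against 17.8% of all peaks), a share not matched for width. Their median width was 679 bp, and over all peaks from 500 to below 1000 bp the control stood at 2.94. The median change over the local control was 0.82 at the 37. With gaps of 500 bp or more it was 0.73 at peaks under 500 bp and 0.09 at those from 500 to below 1000 bp. The part of the control was not tested.

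Wide and close peaks together made up 424 peaks (6.86%) and held 111 of the 249 gains (44.6%). Of these peaks 26.2% passed higher, against 2.4% of the other 5761. Only 12 peaks were both wide and close. With 1 library left out, 40 to 49 wide peaks, 30 to 37 peaks with gaps under 500 bp and 17 to 21 with gaps under 200 bp passed higher. How the peaks were called and joined was not stated in the sources used, so width and spacing may themselves depend on these libraries.

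**Figure D3:**
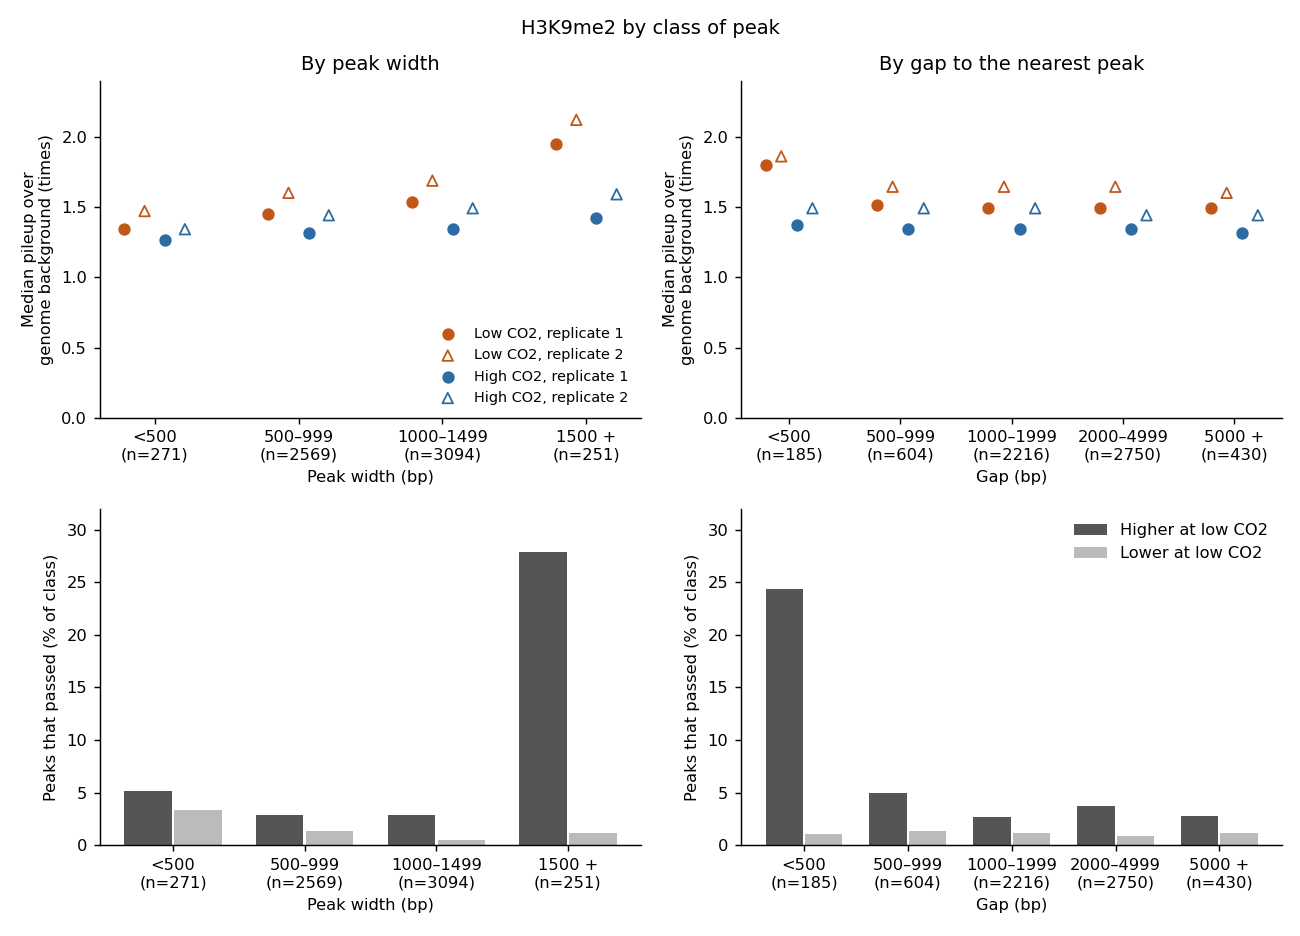
Top: median H3K9me2 pileup over genome background (times) in each library, by peak width (left) and by gap to the nearest peak (right). Bottom: share of peaks in each class that passed higher or lower at low CO2 (%), which reaches 27.9% higher at 1500 bp or more and 24.3% higher at gaps under 500 bp.

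The changes of close neighbours were correlated. With gaps under 500 bp, the change of a peak correlated at 0.36 with that of its nearest peak (185 peaks, which share neighbours and can share reads), against 0.02 at gaps from 2000 to below 5000 bp (2750 peaks). Of the 45 higher peaks in the closest class, 20 had a nearest peak that was also higher (44.4%), against 20.7% of the 140 others in that class. Over all gaps these shares were 10.8% and 4.14%.

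Gains and losses came singly or in pairs along the chromosomes. No more than 2 neighbouring peaks passed in the same direction, in 20 runs of higher and 3 runs of lower peaks, and 10 of the 20 had a gap under 500 bp. The pair with the largest mean change was peak34 with peak35 (chromosome 1, 212734 to 213653), 54 bp apart. At peak35 the level was 2.71 and 3.29 times at low CO2, against 1.37 and 1.59 times at high CO2, so both of the pair were higher in both low-CO2 libraries.

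The next pair, on chromosome 9, was peak5952 (188351 to 189460) and peak5953 (193414 to 195217). Their levels were 3.06 and 2.47 times at peak5952 and 3.28 and 3.90 times at peak5953 at low CO2, against 1.37 and 1.34 times and 1.57 and 1.19 times at high CO2. The low-CO2 control stood at 6.76 and 8.79 times its lowest value in replicate 1, and over the local control the changes were -0.03 and -0.06. Another pair, peak1475 (chromosome 14, 999916 to 1000533) with peak1476, lay 58 bp apart. At peak1475 the level was 2.39 and 2.17 times at low CO2, against 1.35 and 1.19 times at high CO2, and it passed 2 times of 4 with 1 library left out.

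Chromosomes differed little in their median H3K9me2 change. Higher peaks lay on all 30 chromosomes and lower peaks on 22. The median change of a chromosome ran from -0.09 to 0.05, against -0.02 over all peaks, a smaller range than between classes of width. One read moves the level of a peak by 0.02 to 0.05 times the genome background, depending on the library, so these medians differ by about the worth of a few reads.

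Chromosome 26 had the highest median change (0.05, 122 peaks). There 14 peaks passed higher (11.5%, against 4.03% of all peaks) and 0 lower, and the next highest share of higher peaks on any chromosome was 6.62%. Its median level was 1.58 and 1.69 times at low CO2, against 1.35 and 1.44 times at high CO2, where the high-CO2 values equal those over all peaks. Of the 14, 5 lay in the first 100 kb, another 5 between 200 and 300 kb, and 7 were wide or close to another peak. Such wide or close peaks numbered 19 of the 122 on this chromosome, against 6.86% of all peaks. Without 1 library 5 to 7 of the chromosome's peaks passed higher, and its median change over the local control was -0.07.

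Chromosomes 30, 28 and 9 had the lowest median changes, at -0.09, -0.07 and -0.05. Chromosome 28 had 1 higher peak of 109 (0.917%) and 0 lower. On chromosome 30 the median level was 1.48 and 1.65 times at low CO2, against 1.37 and 1.49 times at high CO2. On chromosome 9 it was 1.48 and 1.60 times at low CO2, against 1.35 and 1.44 times at high CO2, and 11 of 260 peaks passed higher (4.23%), close to the share over all peaks. Chromosomes 3 and 17, next highest to chromosome 26, changed by 0.02 and 0.01. Over the genome background taken as the lowest value, the median change of every chromosome was above 0, from 0.10 to 0.24. No exact permutation test of a chromosome can go below p = 0.333 with 2 against 2 libraries.

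**Figure D4:**
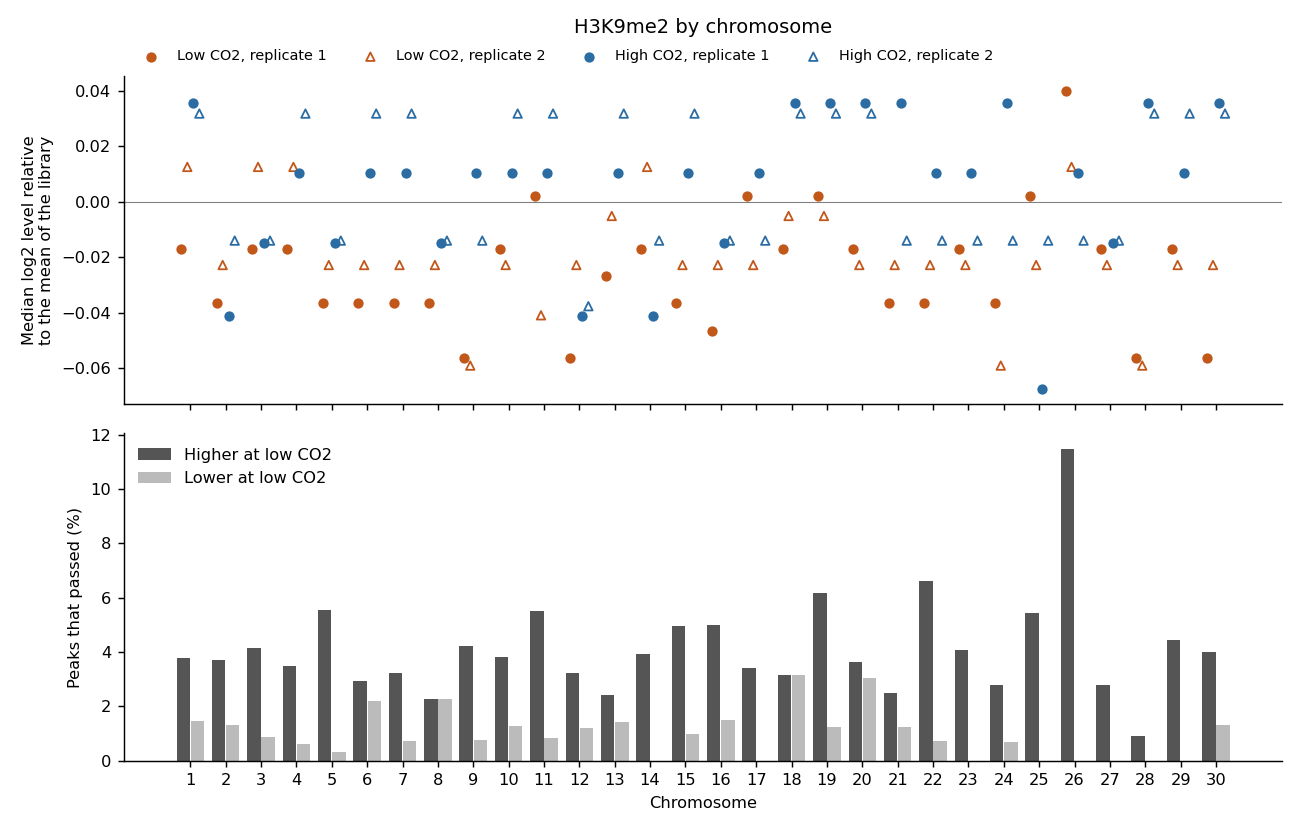
Top: median log2 H3K9me2 level of the peaks of each chromosome relative to the mean of the library, 1 mark per library. Bottom: share of each chromosome's peaks that passed higher or lower at low CO2 (%), highest on chromosome 26 with 11.5% higher.

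Along the chromosomes, the start of chromosome 18 stood lowest. The genome was divided into windows of 100 kb, of which 304 held at least 10 peaks, and their median change ran from -0.37 to 0.20, with quartiles of -0.06 and 0.02. The lowest value was in the first window of chromosome 18, where all 16 peaks were below 0. The window and the stretch below were chosen after their values were seen, so they are a description without a test.

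All 22 peaks before 130 kb on chromosome 18 were below 0, with changes from -0.72 to -0.06 and a median of -0.33. Of these, 5 passed lower and 0 higher, while on the remaining 136 peaks of the chromosome 0 passed lower and the median change was -0.02. The median level of the 22 was 1.33 and 1.41 times the genome background at low CO2, against 1.46 and 1.74 times at high CO2. Both high-CO2 libraries were above both low-CO2 libraries here, while over all peaks they were below.

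Of the 10 named losses, 4 lay in this stretch. The lowest was peak2064 (63784 to 65320), with 1.13 and 1.34 times at low CO2, against 1.68 and 1.99 times at high CO2, a change of -0.72 (SE 0.15, limma adjusted p = 0.00010, n = 2 per group). At peak2060 (44614 to 45066) the level was 1.11 and 1.21 times at low CO2, against 1.50 and 1.94 times at high CO2. The other 2 were peak2069 (102425 to 103271) and peak2067 (80853 to 81846), with changes of -0.65 and -0.59.

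Kbu was below its bulk at 20 of the 22 peaks, with a median change of -0.22. Over all peaks the median Kbu change was also below 0, at -0.03. The local control also moved here, lower at low CO2 by 0.71 on the log2 scale relative to the bulk in the first window. Over the local control the H3K9me2 change of that window was 0.18, the opposite direction. With 1 library left out it was -0.44 to -0.28. A window of chromosome 6, 1300001 to 1400000, was the next lowest, with a median change of -0.31 and 12 of 13 peaks below 0. The first windows of other chromosomes varied. Those of chromosomes 11, 14, 13, 29, 7, 16, 8, 27, 24 and 5 were also below the lower quartile of -0.06, at -0.17 to -0.07. Those of chromosomes 19, 22 and 23 were at -0.013, -0.0065 and -0.0061.

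The highest window was on chromosome 14, 900001 to 1000000, with a median change of 0.20 and 15 of 18 peaks above 0. Its median level was 1.57 and 1.71 times at low CO2, against 1.22 and 1.19 times at high CO2, so the high-CO2 level there was below that of all peaks. The pair of peak1475 and peak1476 straddles its end.

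**Figure D5:**
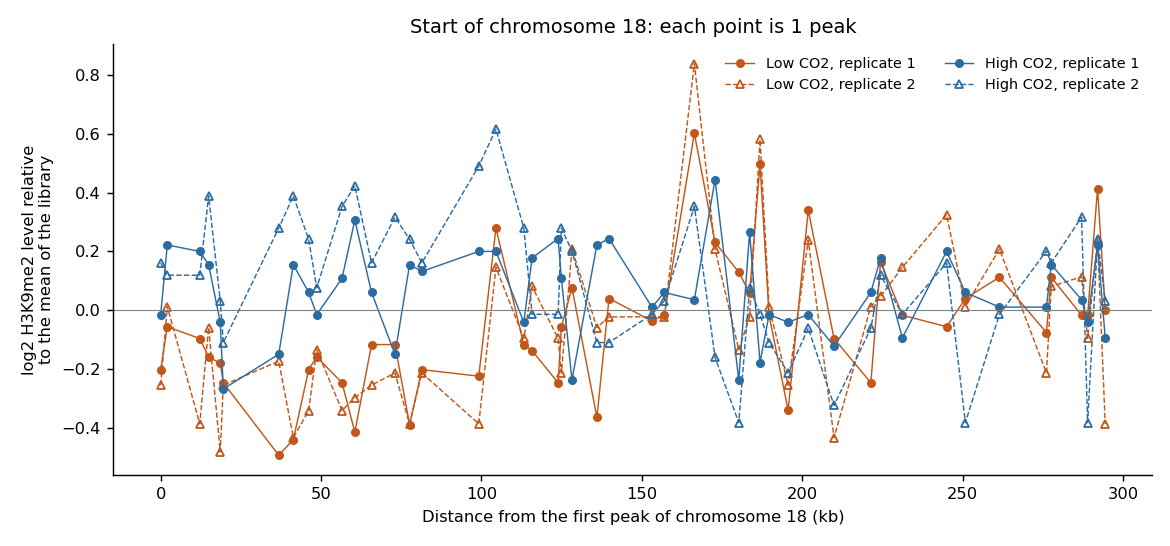
log2 H3K9me2 level of each peak relative to the mean of the library (vertical axis) by distance from the first peak of chromosome 18 (horizontal axis, kb), 1 line per library. Over the first 22 peaks, a stretch chosen after its values were seen, medians were -0.19 and -0.23 at low CO2, against 0.12 and 0.24 at high CO2. Over all peaks they were -0.04 and -0.02 at low CO2, against 0.01 and -0.01 at high CO2.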

How the data were processed

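ChIP-seq libraries of *N. oceanica* IMET1 were made with antibodies to H3K9me2 and Kbu at both CO2 levels, with 2 libraries per mark and level. Trim Galore, BWA, Picard, deepTools and MACS2 are named, without versions, in the submitters' processing notes. The genome build, the control libraries and the way peaks were called and joined were not stated in the sources used. For each library the authors deposited 2 signals, the ChIP pileup and lambda, the background, per the file headers. Every H3K9me2 pileup was a whole multiple of 1 step per library (within 0.05 of a step), as a height at 1 position would be, and is coverage rather than a count of reads per peak, so no count test was run. The authors' log2 fold change, of high over low CO2, and their p-values stand in the deposited table. Their tool was not stated. Their normalised ratio to control was not used.

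Levels were pileup over the lowest lambda of the library. R 4.3.3 with limma 3.58.1 tested log2(level + 0.1) by empirical Bayes with a mean trend, two-sided, over all 6185 peaks. The pseudocount of 0.1 slightly understates changes. The pooled replicate SD was 0.15 on the log2 scale. Prior degrees of freedom were infinite, so very small p-values rest on 1 shared spread. The fit was tested on simulated data. Summaries and figures were made with Matplotlib 3.10.9, SciPy 1.17.1, pandas 2.3.3 and NumPy 2.4.6 under Python 3.11.15.

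Members, classes and rules were chosen with earlier results of these data known. The 10 peaks of largest change were named in each direction, among those that passed, whose groups did not overlap and whose mean level exceeded the lower quartile of all peaks. The 3 leading runs of neighbours, the 5 highest peaks per CO2 level and 3 chromosomes at each end were named too. Among runs of equal length, the larger mean change decided. Replicate numbers in the labels were not taken as pairs.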

Additional observations from a re-analysis of the deposited data

How the results depend on the processing

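Relative to the bulk, the 10 named gains passed in 80 of 80 fits under the other settings of the scaling, pseudocount, filter, trend, block and local control. With 1 library left out their changes were 1.06 to 1.54 relative to the bulk and 1.26 to 1.73 over genome background. With each peak's own spread none of the 10 passed, with adjusted p up to 0.53 (limma). The 10 named losses passed in 26 of 40 fits with 1 library left out. Relative to the bulk, 249 gains and 65 losses became 0 and 1 with each peak's own spread, 1100 and 1473 over the local control, 158 and 15 at an adjusted p under 0.01, and 131 and 12 with a 1.5-fold minimum (limma). Losses were 22 with library medians. With 1 library left out gains were 129 to 158 and losses 7 to 67. Over genome background 304 gains became 6 with each peak's own spread and 132 at an adjusted p under 0.01, and were 0 to 22 with 1 library left out. With the replicate number as a block, gains and losses were 912 and 10 over genome background and 283 and 74 relative to the bulk. Deviations of same-numbered libraries correlated at 0.04 across peaks, after each library's mean was removed. A shift shared by all peaks of same-numbered libraries cannot be seen that way. The median level was higher in replicate 2 than in replicate 1 at low CO2 (1.65 against 1.50) and at high CO2 (1.44 against 1.35). Whether the replicate numbers pair the libraries is not known. Over the local control the change was 0.37 at peak1761, 0.031 at peak2060, 0.46 at peak2880, -0.0284 at peak5952, -0.0601 at peak5953 and -0.0147 at peak6010, each the opposite direction. At peak4257 the change was -0.0338 to 0.40 with 1 library left out. With the 5th percentile of lambda as genome background the difference of the median levels was -0.40. As an alternative added after seeing the data, it gave 44 higher and 4080 lower peaks over genome background, 25 and 10 peaks of at least 2 times at low and high CO2, and changes of -0.30 at peak4257 and -0.24 at peak6010, the opposite direction. The 10 named gains passed there and the 10 named losses then passed lower. The width difference of 0.29 was 0.10 between quartiles of width, 0.00012 as the median within quartiles of H3K9me2 level, 0.0096 within the lowest quartile of Kbu level, the only one with at least 5 peaks in both classes, and -0.95 over the local control, and 0.24 to 0.31 with 1 library left out. The spacing difference of -0.18 was 0.0049 between quartiles of spacing, -0.0267 within quartiles of H3K9me2 level, -0.15 within quartiles of Kbu level and -0.38 over the local control. By the mean change, chromosomes 30, 28, 9 and 26 had -0.0542, -0.0601, -0.0200 and 0.0789. Over the local control chromosomes 28, 9, 17, 3 and 26 had -0.0670, -0.100, -0.0345, -0.0777 and -0.0689. With 1 library left out the median change was -0.0827 to -0.0439 on chromosome 30, -0.0755 to -0.0465 on 28, -0.0603 to -0.0292 on 9, -0.00785 to 0.0445 on 17, 0.00226 to 0.0233 on 3 and 0.0220 to 0.0644 on 26. The first window of chromosome 18 was at -0.38 in its first 50 kb and -0.35 in the rest, settings chosen after seeing the data. Within-class counts, also added after seeing the data, were 30 to 80 higher wide peaks, 30 to 96 higher peaks with gaps under 500 bp, 17 to 28 with gaps under 200 bp and 5 to 18 on chromosome 26, leaving aside each peak's own spread, which gave 0 in all 4. The cause of these differences was not tested. The named gains rested on 16 to 226 reads per library and the named losses on 25 to 71.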
